A study of Mus musculus with 2 samples.

Results

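The genes described here follow the bone-forming cell from commitment to mineralized matrix: Runx2, Sp7, Alpl, Ibsp, Spp1, Bglap, Dmp1, Phex, Ifitm5 and Sparc. They were chosen by name, as 10 known genes of osteoblast differentiation among the 43346 gene rows of the tables, and all 10 had a row. The data are total RNA-seq of mouse facial prominence tissue at E13.5 (day 13.5 of embryonic life), the swellings from which the jaws, nose and palate form. There were 2 libraries and 1 group: strain B6NCrl, male and female embryos together, with no treatment or genetic change given in the labels. Each library was made from 10 ng of RNA longer than 200 nt, extracted with the Ambion mirVana method, and spike-in RNAs were added. The labels count the libraries as biological replicates 1 and 2 but name a single donor identifier for both, so the spread between them holds biosample and library preparation together. No conditions were compared, and no p-value is given.

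Osteoblasts of the face arise largely from neural crest mesenchyme, which forms most facial bones directly, without a cartilage model. Runx2 is the transcription factor that commits mesenchyme to the lineage, and Sp7 (osterix) is the zinc finger factor needed after it. Committed cells then make alkaline phosphatase (Alpl) and a collagen matrix that carries acidic phosphoproteins (Ibsp, Spp1) and the collagen-binding glycoprotein osteonectin (Sparc). Bglap (osteocalcin) marks the mature osteoblast, and Dmp1 and Phex are best known from osteocytes, the cells enclosed in bone. Ifitm5 is a membrane protein of the osteoblast whose human counterpart is mutated in a brittle bone disease.

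Replicate 1 held 28542452 expected counts on gene rows and replicate 2 held 22719352. ERCC spike-ins took 6.27% and 4.45% of all expected counts. All 8 markers of facial mesenchyme, the labelled tissue, reached 1 TPM in both libraries, as did 60.9% of protein-coding genes. TPM is a transcript level corrected for length and scaled to a fixed library total, in which the deposited values include the spike-ins. Liver markers differed between the libraries: their summed level was 15.6 TPM in replicate 1 and 388 TPM in replicate 2. Heart markers summed to 12.3 and 55.6 TPM. Replicate 2 thus stood apart from replicate 1 in genes of organs other than the face.

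Of the 10 osteoblast genes, 7 reached 1 TPM in both libraries, against 34.4% of all gene rows and 60.9% of protein-coding genes. The counts of detected genes in the lists below are to be read beside the same 60.9%. The 7 osteoblast genes were Sparc, Ibsp, Alpl, Ifitm5, Runx2, Sp7 and Spp1. Phex passed 1 TPM only in replicate 1 and Dmp1 only in replicate 2, and Bglap was below it in both. The median of the 10 mean levels was 26.0 TPM, beside 4.68 TPM over all protein-coding genes. In this bulk tissue, fewer cells of a type and less RNA per cell cannot be told apart.

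The 10 levels covered a 1440-fold range from Sparc to Bglap. The deposited tables give a 95% credibility interval of TPM for each gene, which covers counting and read assignment within a library. Neighbouring genes in the order of mean TPM were called apart where these intervals did not overlap in either library and the order was the same. By this measure 6 of the 9 neighbours were apart, and so were 41 of all 45 pairs. The order of Ifitm5 and Runx2 was not settled, with Ifitm5 1.53 times Runx2 in replicate 1 and 0.835 times in replicate 2. Phex, Dmp1 and Bglap were not apart from one another in any of their pairings. When expected counts were used without dividing by length, Runx2 and Sp7 stood above Ifitm5, whose transcript is 708 nt long in the deposited tables.

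**Figure D1:**
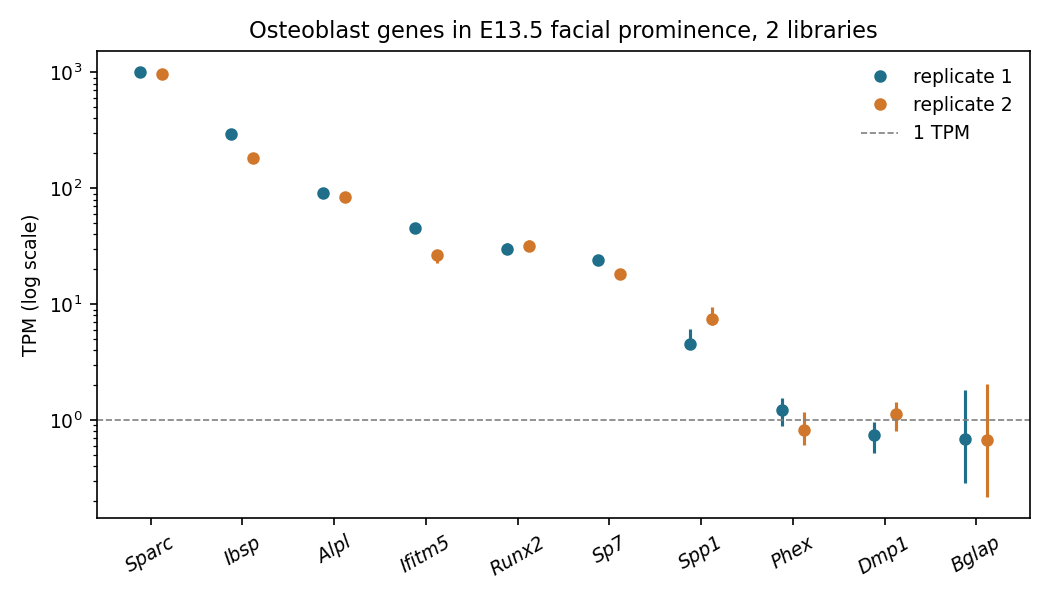
TPM of the 10 osteoblast genes in each library on a log axis, ordered by mean; points are the deposited TPM, vertical lines the deposited 95% credibility intervals and the dashed line 1 TPM. Sparc lies at 1006 and 963 TPM, Phex, Dmp1 and Bglap lie around the dashed line, and Ibsp and Ifitm5 show the higher point in replicate 1.

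Runx2 (ENSMUSG00000039153.12, chr17:44495987-44814797, minus strand, mm10) was at 29.98 TPM in replicate 1 and 31.59 TPM in replicate 2, from 2152 and 1511 expected counts. Its level of 30.79 ± 1.14 TPM (SD, n = 2) placed it at percentile 77.9 and 78.1 of protein-coding genes. The gene is transcribed from a distal promoter (P1) and a proximal promoter (P2), which give proteins with different first residues. The annotation lists 13 Runx2 transcripts, 7 starting at P1 (44814226 to 44814797) and 6 at P2 (44734693 to 44736648), and the most upstream starts of these groups lie 78149 nt apart. The first coding bases of the leading transcript of each promoter are shown here because they are where the proteins differ. Both are from GENCODE M21 transcripts on GRCm38, 5′ to 3′ on the minus strand, with the start codon in capitals. The P1 stretch is chr17:44814169-44814226, the part of the coding sequence in its first coding exon, and the P2 stretch is chr17:44735575-44735634.
Runx2-202 (P1): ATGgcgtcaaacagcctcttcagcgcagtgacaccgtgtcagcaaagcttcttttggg
Runx2-203 (P2): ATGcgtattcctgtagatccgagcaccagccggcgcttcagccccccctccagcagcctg

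Transcripts from P1 summed to 16.4 TPM in replicate 1 and 20.0 TPM in replicate 2, and those from P2 to 13.6 and 11.6 TPM. P1 thus held 54.6% and 63.3% of the Runx2 level, 59.0% ± 6.17 (SD, n = 2), and was the larger share in both libraries. In replicate 1 its margin over P2 was smaller than the 3.84 TPM of Runx2-208, a P1 retained-intron transcript of 558 nt. By expected counts P1 held 1231 and 1026, and P2 held 921 and 484.5. Runx2-202, the full-length P1 transcript, was at 8.24 and 8.25 TPM and was the leading transcript. Runx2-203, its P2 counterpart, was at 5.45 TPM in replicate 1 (interval 4.33 to 6.50) and 3.34 TPM in replicate 2 (2.23 to 4.4). The intervals of Runx2-202, 6.59 to 9.00 and 6.56 to 9.10, did not overlap those of Runx2-203 in either library.

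The other Runx2 transcripts were less well resolved. From P1, the shorter coding transcripts Runx2-204 and Runx2-207 were at 2.74 and 4.41 TPM and at 1.55 and 2.14 TPM, and the retained-intron transcript Runx2-208 was at 3.84 and 5.20 TPM. From P2, the incomplete transcript Runx2-209 was listed at 5.15 and 4.68 TPM, but its intervals ran from 0.118 to 6.17 and from 0.00379 to 6.17. Runx2-212, annotated as a target of nonsense-mediated decay, was at 1.51 and 1.56 TPM. The 4 transcripts Runx2-201, Runx2-206, Runx2-211 and Runx2-213 were listed at 0 in both libraries. Over the 7 complete protein-coding transcripts alone, P1 held 65.9% and 77.4%, a set chosen after the values were seen.

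**Figure D2:**
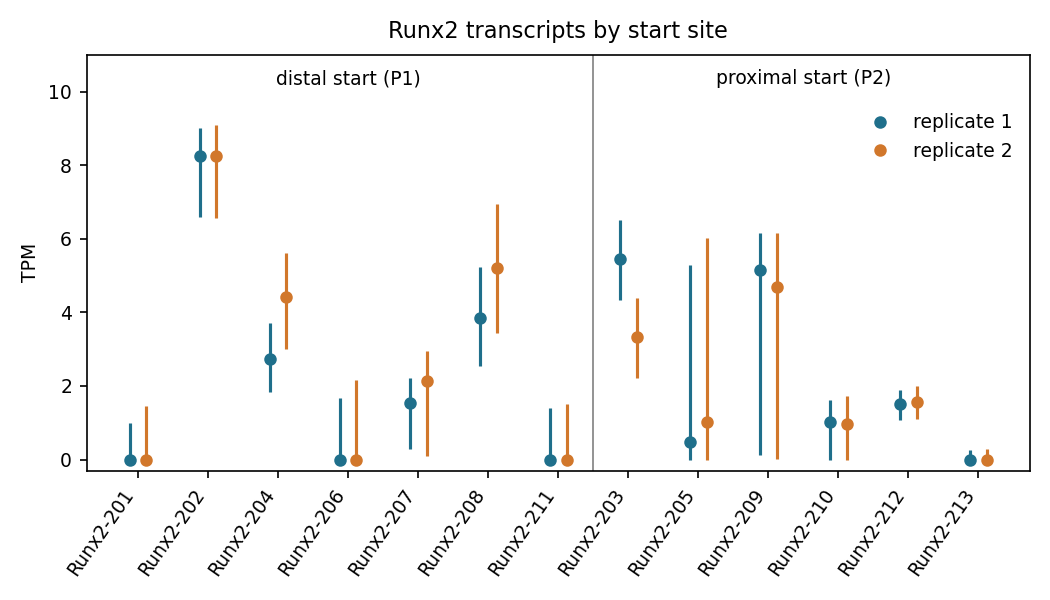
TPM of the 13 Runx2 transcripts, grouped by distal (P1, left) and proximal (P2, right) start; points are the deposited TPM and lines the 95% credibility intervals in replicate 1 and replicate 2. Runx2-202 is the highest point in both libraries, and the P2 transcripts Runx2-205 and Runx2-209 carry intervals that reach almost from 0 to about 6 TPM.

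Genes on the opposite strand overlap Runx2, and the sources used here do not say whether the libraries keep strand. Supt3, which encodes a subunit of a histone acetyltransferase complex, spans the P1 start and was at 19.28 and 18.93 TPM, but its exons share 0 nt with those of Runx2. The antisense transcript gene Runx2os1, at 3.53 and 3.06 TPM, shares 519 nt of exon with Runx2. How reads of the shared stretch were divided was not tested.

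Runx2 was the highest of the 3 Runx genes. Runx1, better known from blood, was at 13.89 and 19.04 TPM, and Runx3 at 2.37 and 3.02 TPM. Runx2 was 2.16 and 1.66 times Runx1, with intervals apart in both libraries. Cbfb, the shared partner that Runx proteins need to bind DNA well, was 2.56 and 2.87 times Runx2. In the list of 20 Runx factors, partners and modulators, all 20 reached 1 TPM in both libraries, against 60.9% of protein-coding genes. The highest were Ctnnb1 (beta-catenin) at 476.7 ± 9.38 TPM and the homeobox gene Msx1 at 419.8 ± 29.1, and the lowest was Runx3 at 2.70 ± 0.460. Twist1 and Twist2, whose proteins restrain Runx2, were at 45.5 ± 3.05 and 73.8 ± 5.59 TPM (SD, n = 2).

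Sp7 (ENSMUSG00000060284.6, chr15:102356606-102367182, minus strand) was at 24.1 TPM in replicate 1 and 18.2 TPM in replicate 2, from 1433 and 822 counts, all on its single listed transcript. Both libraries placed Sp7 below Runx2. Among the 9 Sp factors, which share the zinc finger DNA-binding domain, Sp7 was the second highest after the widely expressed Sp3 at 51.9 ± 0.120 TPM. The lowest was Sp6, a factor of dental epithelium, at 2.05 ± 0.580 TPM.

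Alpl (ENSMUSG00000028766.6, chr4:137741733-137796384, minus strand) encodes the phosphatase that frees phosphate from the mineral inhibitor pyrophosphate. It was at 91.6 TPM in replicate 1 and 84.5 TPM in replicate 2, 88.03 ± 5.01 TPM (SD, n = 2), and Alpl-201 held 98.2% and 99.0% of the level. Alpl was 3.05 and 2.67 times Runx2. Of the 4 mouse alkaline phosphatase genes, Alpl alone was at 1 TPM or more. The others are intestinal or embryonic types: Akp3 and Alppl2 had 0 counts in both libraries, and Alpi had 0 and 13 counts.

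In the list of 14 other genes of mineral and phosphate handling, 11 reached 1 TPM in both libraries, against 60.9% of protein-coding genes. The highest was Mgp, an inhibitor of calcification made by cartilage and vessels, at 77.9 and 151 TPM. It was followed by Mme, the peptidase neprilysin, at 50.3 and 65.6 TPM and by the phosphate transporters Slc20a2 (25.3 and 26.8 TPM) and Slc20a1 (22.8 and 23.3 TPM). Phospho1, the phosphatase that works beside Alpl inside matrix vesicles, was at 3.46 and 1.74 TPM. Alpl was 26.5 and 48.6 times Phospho1. Fgf23, the phosphate-regulating hormone of osteocytes, had the lowest mean, at 0.22 and 0.18 TPM, and Ahsg was at 0.03 TPM in replicate 1 and 26.65 TPM in replicate 2.

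Ibsp (bone sialoprotein, ENSMUSG00000029306.8, chr5:104299171-104311469, plus strand) was at 293 TPM in replicate 1 and 184 TPM in replicate 2, from 12213 and 5844 counts. This placed it at percentile 98.1 and 96.7 of protein-coding genes. The deposited TPM of Ibsp lay just above its own 95% intervals (280.4 to 290.4 and 173 to 182), and the same was true of Sparc. Ibsp was 12.2 and 10.1 times Sp7 and 3.20 and 2.18 times Alpl. It was also 0.310 and 0.226 times the collagen gene Col1a1, which is shared with many connective tissue cells.

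Ibsp sits in a cluster of 5 matrix phosphoprotein genes that spans 270.3 kb on chromosome 5, all on the plus strand, and 3 of the 5 are among the osteoblast genes. Ibsp stood far above its neighbours. Spp1 (osteopontin, ENSMUSG00000029304.10, chr5:104435118-104441050) was at 4.58 and 7.52 TPM from 127 and 160 counts. Dmp1 (ENSMUSG00000029307.6, chr5:104202613-104214102) was at 0.75 and 1.12 TPM from 42 and 48 counts. Ibsp was therefore 64.0 and 24.5 times Spp1 and 391 and 164 times Dmp1, while Spp1 was 6.11 and 6.71 times Dmp1. The nearest neighbour, Mepe, starts 26.2 kb from the Ibsp start and had 2 counts in each library, 0.06 and 0.08 TPM. Dspp, the dentin gene, had 3 and 0 counts. All 6 ratios between Ibsp, Spp1 and Dmp1 put Ibsp highest and Dmp1 lowest.

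**Figure D3:**
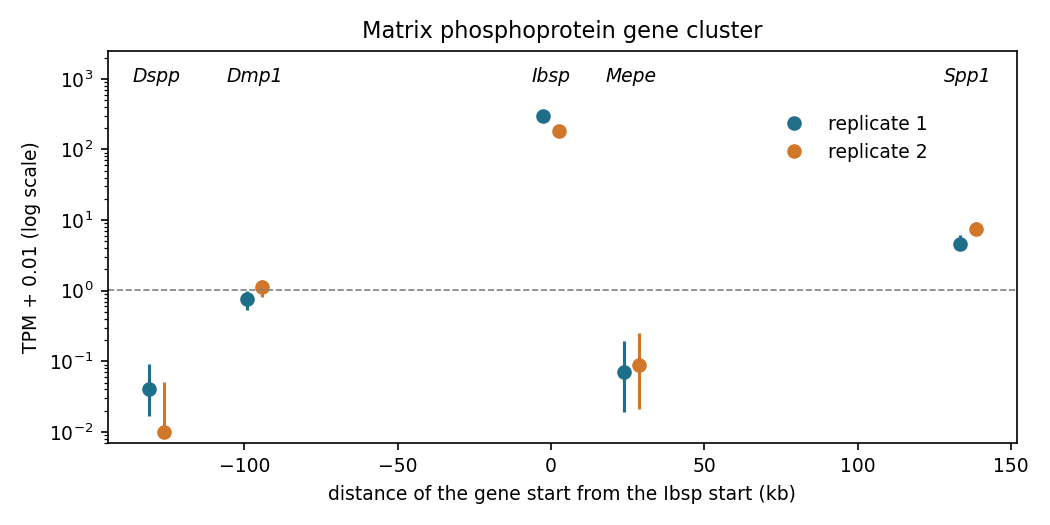
TPM plus 0.01, on a log axis, of the 5 genes of the matrix phosphoprotein cluster against the distance of each gene start from the Ibsp start; points are the 2 libraries, set slightly apart, and lines the 95% credibility intervals. Ibsp is at 293 and 184 TPM, and its nearest neighbour Mepe, 26.2 kb away, is at 0.06 and 0.08 TPM.

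The coding sequences of these genes show what the 3 members share. In the longest complete coding sequence of each gene, aspartate and glutamate made up 24.1% of residues in Ibsp, 23.1% in Spp1 and 28.0% in Dmp1. The median over 21592 mouse proteins was 11.1%. Of the other genes of the cluster, Dspp was at 25.3% and Mepe at 10.7%. Each of the 3 holds 1 RGD, the integrin-binding triplet of arginine, glycine and aspartate, which 7.23% of all proteins hold, which none of the other 7 members has, and which Dspp and Mepe hold too. They differ in serine, the residue that is phosphorylated: 8.02% in Ibsp, 17.3% in Spp1 and 22.9% in Dmp1, with a median of 7.89% over all proteins. Ibsp has the longest unbroken acidic run, 12 residues, beside 10 in Spp1 and 6 in Dmp1.

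Sparc (ENSMUSG00000018593.8, chr11:55394500-55423183, minus strand) was the highest member, at 1006 TPM in replicate 1 and 963 TPM in replicate 2, percentile 99.6 of protein-coding genes in both. It is made by fibroblasts and endothelium as well as by osteoblasts. Much of this level was assigned to a short transcript: Sparc-205, a retained-intron form of 741 nt, was at 439 and 515 TPM, or 43.6% and 53.4% of the gene level. By expected counts, which are not divided by length, the same transcript held 21.6% and 26.1% of the gene. The full-length coding transcripts Sparc-201 and Sparc-202 summed to 453 and 440 TPM. Even so restricted, Sparc stayed above the level of Ibsp in both libraries. The whole-gene level of Sparc was 1.06 and 1.18 times that of Col1a1, which was at 946 and 815 TPM. The full-length coding transcripts of Sparc alone lay below Col1a1 in both libraries. All 8 genes of the Sparc family reached 1 TPM, led after Sparc by Fstl1 (follistatin-like 1) at 522 and 619 TPM and Smoc2 at 86.0 and 127 TPM, and Spock2 was the lowest at 5.40 and 5.62 TPM.

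Type I collagen and its partners, the bulk of unmineralized bone matrix, were abundant but are not specific to bone. All 16 genes of the osteoid matrix list reached 1 TPM in both libraries, against 60.9% of protein-coding genes. The highest were Serpinh1, the collagen chaperone, at 1190.0 ± 85.1 TPM, Col3a1 at 1113 ± 34.1 and Col1a1 at 880.6 ± 92.9 (SD, n = 2). The lowest was osteomodulin (Omd), a proteoglycan of mineralized tissue, at 12.7 ± 2.06 TPM.

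Ifitm5 (ENSMUSG00000025489.4, chr7:140948958-140950291, minus strand) was at 45.7 TPM in replicate 1 and 26.4 TPM in replicate 2, from 589 and 259 counts on a single transcript. It lies beside Ifitm1 and Ifitm2 in a cluster of antiviral membrane protein genes on chromosome 7. Ifitm2 was at 1025 and 1275 TPM, Ifitm3 at 73.7 and 84.2 TPM and Ifitm1 at 69.0 and 77.8 TPM. Ifitm5 was thus the lowest of these 4 genes in both libraries, and Ifitm2 was 22.4 and 48.3 times Ifitm5. Ifitm6, which lies near Ifitm3 on chromosome 7, was lower still, at 0.43 and 0.14 TPM. Ifitm7, the lowest of the 7 family members, was at 0.19 and 0.11 TPM. In the M21 annotation, 227 of the 765 exonic nt of Ifitm5 are shared with Gm45717 on the same strand, for which the tables have no row.

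Bglap (ENSMUSG00000074483.2, chr3:88383501-88384464, minus strand) was the lowest member, listed at 0.69 and 0.68 TPM. These levels rest on 4.60 and 2.75 expected counts, and the intervals ran from 0.285 to 1.81 and from 0.216 to 2.03 TPM. In replicate 1 most of the estimate fell on the coding transcript Bglap-201 (3.6 counts), and in replicate 2 all of it fell on a retained-intron transcript. The mouse has 3 adjacent osteocalcin genes, and the copies Bglap2 and Bglap3 were also near 0, at 0.43 and 0.21 TPM and at 0.21 and 0.20 TPM. None of the 3 copies was at 1 TPM in either library.

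The copies are hard to tell apart by reads. The coding sequences of Bglap and Bglap2 are 98.6% identical, with 4 differences in 288 nt, and 192 of the 341 windows of 100 nt in the Bglap transcript occur unchanged in the Bglap2 transcript. Bglap3 differs from Bglap at 13 coding positions and shares 0 of these windows. How the few reads were divided between Bglap and Bglap2 is therefore uncertain, and the sum of all 3 genes was 1.33 and 1.09 TPM. The first 60 coding bases are printed to set the copies side by side, from GENCODE M21 on GRCm38, 5′ to 3′ on the minus strand. They hold 3 of the 4 coding differences between Bglap and Bglap2. Bglap2 and Bglap3 are identical in this stretch but differ at 9 positions over the whole coding sequence. Capitals in the Bglap line mark bases that differ in either copy, and capitals in the other lines mark bases that differ from Bglap. The stretches are chr3:88384356-88384415, chr3:88378591-88378650 and chr3:88369477-88369536, and each copy differs from Bglap at 3 of the 60 bases.
Bglap: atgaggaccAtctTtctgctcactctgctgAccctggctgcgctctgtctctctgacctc
Bglap2: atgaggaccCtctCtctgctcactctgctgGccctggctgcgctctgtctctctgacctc
Bglap3: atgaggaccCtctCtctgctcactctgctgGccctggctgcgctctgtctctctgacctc

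Phex (ENSMUSG00000057457.7, chrX:157162075-157415312, minus strand) encodes an endopeptidase of the osteoblast and osteocyte surface whose loss causes X-linked phosphate wasting. It was at 1.23 TPM in replicate 1 and 0.82 TPM in replicate 2, from 103 and 54 counts. The full-length transcript Phex-201 held 29.3% and 25.9% of this level, and the incomplete Phex-202 held 48.8% and 66.7%. Phex and Dmp1 overlapped in their intervals and changed order between the libraries.

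The wider osteocyte list gave low values for its most specific genes. Sost (sclerostin), the Wnt inhibitor of mature osteocytes, was at 0.31 and 0.32 TPM from 13 and 10 counts. Of the 10 genes of the list, which includes Dmp1 and Phex, 5 reached 1 TPM in both libraries, against 60.9% of protein-coding genes. The highest were Dkk1 at 29.6 ± 0.863 TPM and Pdpn at 26.9 ± 5.01 TPM, both also expressed outside bone. Mepe was the lowest, with the 2 counts in each library given above.

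Sequences just upstream of the start are shown for Bglap and Spp1 because both hold the letters that Runx proteins bind, at a like distance from the start. The windows are the 250 bases before the RefSeq start (GRCm38.p6), 5′ to 3′ in the direction of transcription, at chr3:88384467-88384716 (minus strand) and chr5:104434861-104435110 (plus strand). Capitals mark TGTGGT or its reverse complement ACCACA, and TATAAA or its reverse complement TTTATA. The Runx letters begin 132 bases before the start in Bglap and 128 before it in Spp1, inverted in both, and TATAAA begins 27 bases before the Bglap start and 211 before the Spp1 start.
Bglap: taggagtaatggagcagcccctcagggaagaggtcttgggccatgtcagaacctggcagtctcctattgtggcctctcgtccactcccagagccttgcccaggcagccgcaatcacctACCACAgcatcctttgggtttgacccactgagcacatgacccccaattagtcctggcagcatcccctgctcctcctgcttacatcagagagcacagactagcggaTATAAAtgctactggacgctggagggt
Spp1: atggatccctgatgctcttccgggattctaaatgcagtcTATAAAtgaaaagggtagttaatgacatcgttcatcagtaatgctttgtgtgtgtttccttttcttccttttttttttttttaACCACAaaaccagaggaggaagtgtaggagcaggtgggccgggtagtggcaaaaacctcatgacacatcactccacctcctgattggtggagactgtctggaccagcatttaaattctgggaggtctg

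The match in the Runx2 window lies downstream of the annotated start of Runx2-202 (44814797), so it is not upstream of that transcript. No window at P2 was examined. The window of Runx2 runs into first exons of the GENCODE annotation, so 30 bases around the match are given, at chr17:44814690-44814719 (minus strand), with ACCACA in capitals.
Runx2: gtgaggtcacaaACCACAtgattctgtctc

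RefSeq windows of 8 of the 10 genes were examined (11 windows). On either strand, TGTGGT was in 4 of the 11 windows, those of Bglap, Dmp1, Runx2 and Spp1, and in 14.0% of all 32851 windows of the same length. TATAAA was in 3 windows, those of Alpl, Bglap and Spp1, and in 12.4% of all. The homeobox letters TAATTG were in 2 windows (Bglap and Phex) and in 7.17% of all, and GGGCGG in 2 (Alpl and Ifitm5) and 32.7%. No match of one motif overlapped a match of another in these windows. The matches are letters only, and nothing here measures binding.

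Hypertrophic chondrocytes, the cartilage cells that mineralize before bone replaces them, also express Runx2, Alpl, Ibsp and Spp1. Their defining collagen gene Col10a1 was at 0.31 and 0.20 TPM from 20 and 10 counts, and Mmp13 was at 0.29 and 0.10 TPM. Ibsp was 946 and 920 times Col10a1. Pth1r, the parathyroid hormone receptor found on osteoblasts and chondrocytes, was at 120 and 104 TPM. The list as a whole had 6 of 9 genes at 1 TPM or more, but 4 of the 9 are the members just named. The share over protein-coding genes was 60.9%. Cartilage itself was present: 10 of 11 chondrocyte genes passed 1 TPM, led by Col2a1 at 263.4 ± 46.7 TPM.

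Osteoclasts, the bone-resorbing cells, had 5 of 11 list genes at 1 TPM or more. The protease gene Ctsk was the highest at 28.95 and 32.1 TPM. The others that passed were Mmp9 (12.6 and 18.5 TPM), Nfatc1 (12.5 and 14.3), Acp5 (6.51 and 7.60) and Itgb3 (2.92 and 3.27). Among the rest, Calcr (calcitonin receptor) was at 0.33 and 0.21 TPM, Dcstamp at 0.35 and 0.20 TPM, and Ocstamp was the lowest at 0.03 and 0.16 TPM. All 8 genes of a macrophage list and all 6 of an endothelium list passed too. Which cells made the transcripts of the osteoclast list was not tested. Of 7 genes of tooth mineral-forming cells 1 passed, the enamel matrix gene Ambn at 5.70 and 3.26 TPM, and Amelx had 0 counts in both libraries. All 13 genes of the list drawn up for membranous bone, not all of them specific to bone, reached 1 TPM in both libraries. Among protein-coding genes, 60.9% did. The list includes Ifitm5 and was led by Lum at 217.5 ± 4.82 TPM and Cdh11 (osteoblast cadherin) at 194.6 ± 25.3. Vdr was the lowest at 1.94 ± 0.283 (SD, n = 2).

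Of 20 genes of the signals that drive osteoblasts, 19 passed 1 TPM in both libraries, against 60.9% of protein-coding genes. The exception was Ihh, the hedgehog ligand made by maturing cartilage, at 0.62 and 0.69 TPM from 31 and 22 counts.

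**Figure D4:**
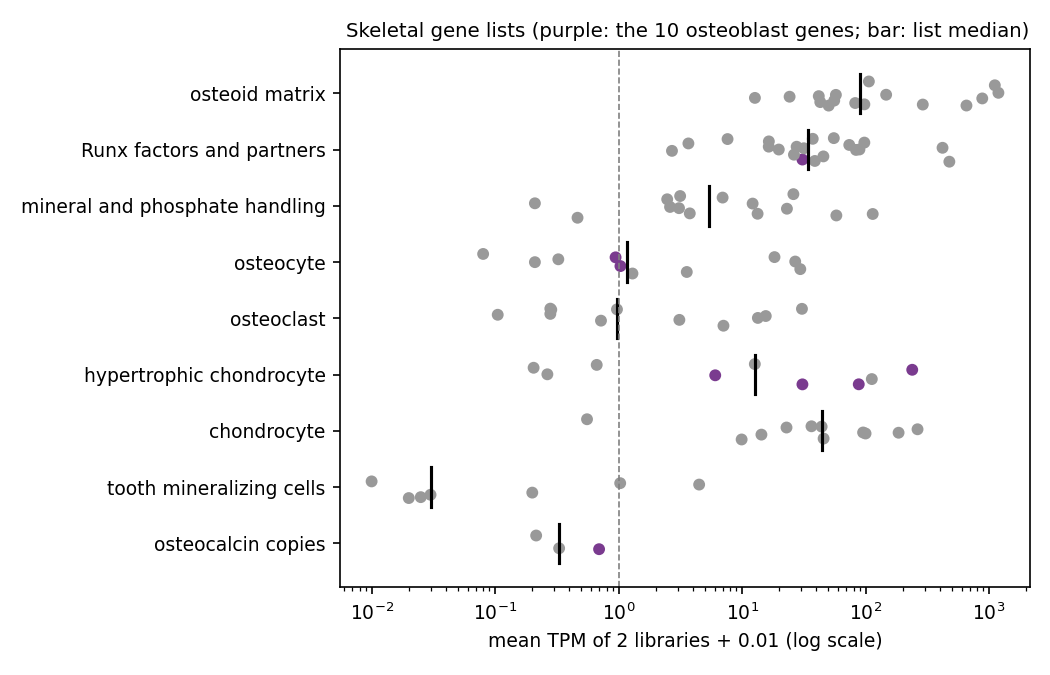
Mean TPM over the 2 libraries, plus 0.01, of each gene in 9 skeletal gene lists on a log axis. Purple points are the osteoblast genes that belong to these lists, black bars list medians, and the dashed line 1 TPM, with vertical scatter for legibility only. Sp7, Sparc and Ifitm5 are in none of the 9 lists, and Runx2 is drawn more than once. Genes of osteoid matrix lie to the right of the line, and the osteocyte and osteoclast lists spread across it.

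Between the libraries, the osteoblast genes did not all move the same way. With the scaling described next, Spp1 and Dmp1 were higher in replicate 2 and the other genes compared were higher in replicate 1. The log2 ratio of replicate 1 over replicate 2 was taken from expected counts scaled by TMM (a library scaling that assumes most genes are unchanged), with exact Clopper-Pearson 95% intervals that cover counting error only. The 9 genes with a mean count of 10 or more were compared with a 1.5-fold limit, and Bglap was below this count. Ibsp, Ifitm5 and Phex, 3 of the 9, were past the limit with the higher value in replicate 1, against 3.99% of 17707 genes. Spp1, 1 of the 9, was past it with the higher value in replicate 2, against 8.76%. The other 5 were within 1.5-fold. This sets 1 library against 1 library and has no replicate check.

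Ifitm5 had the largest difference of the 9, a log2 ratio of 0.89 (interval 0.68 to 1.11), or 1.86-fold. Ibsp followed at 0.77 (0.73 to 0.82), or 1.71-fold, on far more reads. Both intervals lay wholly beyond 1.5-fold. The interval of Phex, 0.63 (0.15 to 1.14), and that of Spp1, -0.62 (-0.97 to -0.28), reached back inside the limit. Sp7 was at 0.51 (0.39 to 0.64), Runx2 at 0.22 (0.12 to 0.31), Alpl at 0.21 (0.14 to 0.27) and Sparc at 0.15 (0.12 to 0.17). Dmp1 was at -0.47, and its interval of -1.12 to 0.14 included 0. The median of the 9 was 0.22, beside 0.015 over all genes tested.

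Among genes with a mean count of 100 or more, 0.786% were past 1.5-fold toward replicate 1 and 2.40% toward replicate 2, and of the 7 osteoblast genes at this depth 2 and 1 were. The central 95% of these 12730 genes lay between -0.56 and 0.41. Ifitm5, Ibsp and Sp7 lay above this range and Spp1 below it. Of the 12730 genes, 48 (0.377%) had a ratio at or above that of Ibsp, and 31 (0.244%) at or above that of Ifitm5, the gene itself included. The ratio of Ibsp to Ifitm5 within a library was 6.41 and 6.98.

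**Figure D5:**
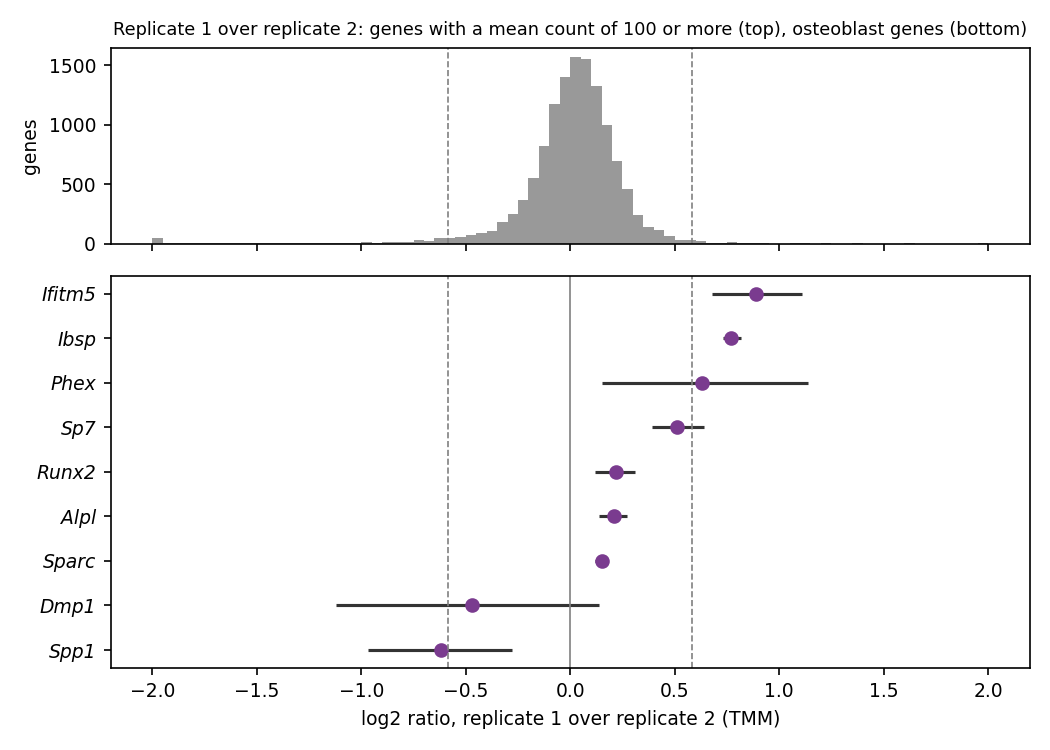
Log2 ratio of replicate 1 over replicate 2 after TMM scaling: above, a histogram of the 12730 genes with a mean count of 100 or more, with values past 2 in either direction gathered in the end bins; below, the 9 osteoblast genes with exact 95% counting intervals. Dashed lines mark 1.5-fold; Ifitm5 and Ibsp lie beyond the right line with their whole intervals and Spp1 at the left line.

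TPM and scaled counts did not always give the same sign. Runx2 was slightly lower by TPM in replicate 1, but its scaled count was higher there. The deposited mean transcript length of Runx2 was 3493 nt in replicate 1 and 3064 nt in replicate 2, and spike-ins took 13.4% and 9.68% of the TPM total. When the libraries were scaled by spike-in total, the median of all genes moved to -0.542. Ibsp (0.21), Ifitm5 (0.33) and Phex (0.08) kept their sign and were no longer past 1.5-fold, and Runx2 (-0.34), Sp7 (-0.05), Alpl (-0.35) and Sparc (-0.41) changed sign. This scaling moves all genes by nearly the same amount, so a sign under it is read against the moved median.

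Over all genes tested, 3.99% were past 1.5-fold toward replicate 1 and 8.76% toward replicate 2. In the mineral and phosphate list, 3 of 13 tested genes were past 1.5-fold toward replicate 1 and 2 of 13 toward replicate 2. Those higher in replicate 1 were Slc13a5, a citrate transporter, at 3.62 and 1.31 TPM (log2 ratio 1.64), Phospho1 (0.74) and Smpd3, a sphingomyelinase needed for bone mineralization (0.62). Those higher in replicate 2 were Mgp (-0.85) and Ahsg, and Enpp1 (-0.55) and Fam20c (-0.40) lay on the same side within the limit. Among 9 Sp factors, Sp6 (0.70) and Sp9 (0.59) were past the limit toward replicate 1 and Sp8 (-0.62) toward replicate 2. The osteocyte list had 1 of 8 in each direction, Phex itself and Tnfrsf11b, the decoy receptor osteoprotegerin (-0.64). Of 9 hypertrophic chondrocyte genes, 3 were past it toward replicate 1 (Ibsp itself, Mmp13, 1.51, and Col10a1, 0.66) and 1 toward replicate 2 (Spp1 itself). Mmp13 rested on 16 and 4 counts and Col10a1 on 20 and 10. Toward replicate 1 stood also 2 of 13 in the membranous bone list (Ifitm5 itself and Kazald1, 0.79) and 1 of 8 in the Sparc family (Smoc1, 0.75). So did 2 of 9 osteoclast genes (Calcr, 1.05, and Dcstamp, 0.84). None of these lists had a gene past it toward replicate 2. Calcr rested on 24 and 9 counts and Dcstamp on 14 and 6, and 6 of the 9 osteoclast genes were lower in replicate 1. No list was tested as a whole.

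Liver and heart genes also differed between the libraries. All 10 liver genes were higher in replicate 2, with a median log2 ratio of -5.71, and Fgb and Hnf4a had 0 counts in replicate 1. All 7 heart genes tested were higher in replicate 2, 6 of them past 1.5-fold. Ahsg, counted in the mineral list because fetuin-A inhibits calcification, is a liver gene and went with them. Their part in the differences of Ibsp, Ifitm5, Phex and Spp1 was not tested. None of the 16 osteoid matrix genes (median -0.03), 8 facial mesenchyme genes (0.11), 11 chondrocyte genes (-0.37) or 20 Runx factors and partners (0.11) was past 1.5-fold. The same held for 8 macrophage genes (-0.08), 6 endothelium genes (-0.12), 6 tendon and periosteum genes (-0.31) and 20 osteoblast signalling genes (0.05).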

How the data were processed

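Each of the 2 libraries, which the labels place in 1 group, came with tables of genes and of transcripts. Per the notes deposited with them, these were made on mm10 with GENCODE M4. The aligner, quantifier and strandedness were not given in the sources used here. The deposited expected counts are the authors' estimated counts of reads per feature. The deposited TPM is scaled over all rows, spike-ins included, and its deposited upper credibility bound is a signal in TPM. The deposited FPKM served as an alternative unit. The deposited posterior standard deviation, a score, and the deposited isoform percent were not used, since transcript TPM gave the shares.

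Genes were matched by identifier without version to GENCODE M21 on GRCm38, the assembly of mm10, for 42462 of 43346 gene rows. Of the 43 transcripts of the 10 genes, 40 have the same length in M21. Coding sequences and their composition came from M21 transcripts, and upstream windows from RefSeq (GRCm38.p6). The Ibsp window is not reported here.

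Detection meant 1 TPM in both libraries. For ratios between libraries, expected counts were rounded, scaled with TMM (edgeR 4.0.16, R 4.3.3; factors 0.987 and 1.01) after leaving out spike-ins, given a prior count of 1 and required to average 10. Clopper-Pearson intervals came from scipy 1.17.1 in Python 3.11.15. The labels name no molecular identifiers, so reads were not taken as independent molecules, and intervals cover counting and assignment error only. The ratio step was tested on simulated data with planted fold changes and counting noise only. That test cannot show how often unchanged genes pass the limit between real libraries. Alternatives included DESeq2 1.42.0 size factors, spike-in scaling, other thresholds and units, and leaving out each library.

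The genes named are the 10 members, the highest 2 or 3 and the lowest of each gene list, relatives of members, and Runx2 transcripts at 5% or more. Others were named after their values were seen, as were the pairs given as ratios. Members and lists were chosen with earlier results of these data known.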

Additional observations from a re-analysis of the deposited data

How the results depend on the processing

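The number of osteoblast genes at 1 TPM or more, 7, was 10 at 0.5 TPM, 7 at 2 TPM, 6 at 5 TPM and 8 in either library alone. The median of their levels, 26.0 TPM, was 17.8 in FPKM and 29.4 with TPM rescaled without spike-ins. Neighbours apart numbered 6 to 7 when each library was left out in turn. Under spike-in scaling, 0 of the genes were past 1.5-fold toward replicate 1 and 2 toward replicate 2, and their median log2 ratio turned from 0.22 to -0.34. Dmp1, at -1.02, joined Spp1, at -1.18. That scaling moved the median of all genes from 0.015 to -0.542. The median of the osteoblast genes lay above that of all genes under both. This could not have come out otherwise, because the scaling moves all genes by nearly the same amount. At a 2-fold limit, 0 were past it in each direction. DESeq2 size factors, library totals and posterior mean counts gave 3 and 1, as with TMM. The P1 share of Runx2 ran from 54.6% to 63.3% when each library was left out, and was 71.7% over complete protein-coding transcripts, an alternative chosen after seeing the data. The difference between libraries needs both, so neither could be left out there. Depth limits Bglap, Dmp1 and Phex, whose levels rest on 2.75 to 103 counts. By posterior mean TPM the level of Bglap was 1.02.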

Other observations

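Of the 7 genes in the list of tooth mineral-forming cells, 2 had enough counts for a ratio between the libraries, and both were higher in replicate 1. Ambn, which encodes the enamel matrix protein ameloblastin, had 211 and 92 counts and a log2 ratio of 0.90 (TMM), and Odam, a protein of the maturing enamel organ, had 43 and 8 counts and a log2 ratio of 2.02. Among the 5 with too few counts, Klk4 had 8 counts and 1 count, Dspp 3 and 0, Enam 1 and 3, Mmp20 0 and 1, and Amelx 0 in both. Over all genes, 3.99% were past 1.5-fold toward replicate 1.

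Most cartilage genes were lower in replicate 1 than in replicate 2, though none was past 1.5-fold. With TMM 9 of the 11 were lower, among them Sox9 at 80.88 and 119.02 TPM (log2 ratio -0.46), Hapln1 at 29.52 and 43.37 TPM (-0.46) and Acan at 8.10 and 11.71 TPM (-0.43). The exceptions were Col9a2 (0.17) and Comp (0.43), which had 30 and 18 counts. With spike-in scaling all 11 were lower, as were all 16 osteoid matrix genes and all 8 facial mesenchyme genes, beside a median of all genes that moved to -0.542, so that sign is not particular to cartilage. The difference between the cartilage and the osteoblast genes was not tested.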
